A study of Mus musculus with 30 samples.

Results

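The hnRNP, SR and Tra2 splicing factors were followed across 5 diets in the hippocampus of aged mice. Every gene whose symbol began with Hnrnp, was Srsf followed by a number, or was Tra2a or Tra2b was taken, whatever its level. The rule found 26 of the 20227 gene symbols in the deposited table and 102 of its 43994 transcripts with a symbol. They comprised 16 Hnrnp genes with 73 transcripts, 9 Srsf genes with 28 transcripts, and Tra2b with 1 transcript.

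The study fed mice 5 diets and sequenced whole hippocampus at 15 months of age, with 3 males and 3 females on each diet. The groups were labelled ChowCR, 5% P, 10% P, 15% P and Chow, and each held 6 libraries that the submitters call biological replicates. The series title ties the P diets to low protein with high carbohydrate and names caloric restriction, which the label CR matches. All groups shared the age and the tissue, and no genetic change or drug is named in the labels. Diet composition, the degree of restriction and the strain are not given in the sources used here. Chow was the common comparison group, and the P diets were also set against ChowCR.

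Precursor mRNA is covered by RNA-binding proteins as it leaves the polymerase. SR proteins carry arginine and serine repeats, bind mostly to exons and recruit the spliceosome, while many hnRNP proteins bind introns or exons and block or redirect it. Genes of both families often limit their own output by making transcripts with a retained intron or with an early stop codon, which are degraded or held in the nucleus. In neurons, these proteins set exon choice in synaptic and channel genes and travel with mRNA into neurites.

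Each level is the sum of FPKM over the listed transcripts of a gene, and FPKM is a read count divided by transcript length and library size. A transcript that a library did not list was counted as 0 in the sum, which does not show that the RNA was absent. FPKM keeps no sequencing depth, so the depth behind a value is unknown. Libraries listed 19681 to 21853 transcripts, and the members made up 0.199% to 0.308% of a library's summed FPKM. Neurod6, a transcription factor gene of hippocampal pyramidal neurons, averaged 58.6 FPKM, and Wfs1, a gene strong in the CA1 field, averaged 28.7 FPKM. Both were listed in all 30 libraries and were picked after their values were seen. Other hippocampal genes looked at were lower and not listed in every library. These were Fibcd1 (15.4 FPKM, 28 libraries), Spink8 (13.9 FPKM, 29 libraries), Prox1 (6.08 FPKM, 25 libraries) and Zbtb20 (1.71 FPKM, 22 libraries). The summed level of 7 choroid plexus markers ran from 7.16 to 7588 FPKM between libraries, nearly all of it Ttr, which was listed in all 30. Its median was 1676 FPKM in ChowCR, 16.9 in 5% P, 84.8 in 10% P, 63.0 in 15% P and 1598 FPKM in Chow, with ranges that overlapped between all diets, and its part in the results was not tested. Libraries are numbered within a diet in the order of deposit.

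The transcripts that separate coding from non-coding products in Srsf6, Hnrnpl, Hnrnph1 and Hnrnph3 are shown by their bases around the point where they part. Sequences are those of GENCODE M21 transcripts on GRCm38, read 5′ to 3′. Lower case marks the last 20 bases of the shared exon, and capitals mark the 20 bases that follow in each transcript. Srsf6 parts at the exon ending at chr2:162932123-162932142 on the plus strand, where the coding transcript joins the next exon and the other runs on into the intron.
Srsf6-203: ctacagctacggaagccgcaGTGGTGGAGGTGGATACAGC
Srsf6-204: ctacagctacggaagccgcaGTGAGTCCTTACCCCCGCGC
Hnrnpl parts at chr7:28815333-28815352 on the plus strand in the same way.
Hnrnpl-202: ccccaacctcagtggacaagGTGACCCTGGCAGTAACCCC
Hnrnpl-206: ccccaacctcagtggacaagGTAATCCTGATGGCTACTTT
Hnrnph1 parts at chr11:50379945-50379964 on the plus strand, again by running on into an intron.
Hnrnph1-201: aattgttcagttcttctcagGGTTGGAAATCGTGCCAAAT
Hnrnph1-204: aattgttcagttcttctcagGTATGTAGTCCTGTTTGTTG
Hnrnph3 parts at chr10:63019393-63019412 on the minus strand, where the second transcript skips the next coding exon.
Hnrnph3-201: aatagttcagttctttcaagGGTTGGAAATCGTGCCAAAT
Hnrnph3-204: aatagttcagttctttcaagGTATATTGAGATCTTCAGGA

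Read from the start codon of the coding transcript, each alternative met an early stop. Srsf6-204 held 147 codons before the first stop, against 339 codons in Srsf6-203, and its stop began 186 bases past the shared exon. Hnrnpl-206 held 230 codons, against 456 codons in Hnrnpl-202, with the stop 210 bases past the exon. In Hnrnph1-204 the stop began at base 6 of the intron, so the frame held 134 codons, against 449 codons in Hnrnph1-201. Skipping the exon in Hnrnph3-204 left 71 codons, against 346 codons in Hnrnph3-201. The introns that begin at these points are 1283 bases long in Srsf6, 3108 bases in Hnrnpl and 1494 bases in Hnrnph1. Hnrnph1 and Hnrnph3 encode closely related proteins, and the 20 bases after the shared exon were identical at 20 of 20 positions in their coding transcripts, while the 20 bases before them were not. How reads were assigned between these genes was not tested.

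The 2 listed long coding transcripts of Hnrnph3 differ in 1 exon. Hnrnph3-201 holds 45 bases, or 15 codons, at chr10:63018041-63018085 on the minus strand that Hnrnph3-202 lacks, shown in capitals after the 20 bases before them.
Hnrnph3-201 exon: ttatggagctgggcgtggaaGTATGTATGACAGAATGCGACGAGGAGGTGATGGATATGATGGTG

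A large part of the listed family was not annotated as protein coding. Of the 102 rows, 34.3% were protein coding, 32.4% retained an intron, 23.5% were processed transcripts with no open reading frame and 9.80% were marked for nonsense-mediated decay, the pathway that destroys mRNA with an early stop. Over all 43416 transcripts with an annotation, 43.2% were protein coding, 26.6% retained an intron, 9.25% were processed transcripts and 3.12% were marked for decay. By summed FPKM, retained-intron rows held 16.2% of the members' total and decay rows held 7.17%, against 3.80% and 0.415% over all symbols. Protein coding rows held 66.9% and processed transcripts held 9.74%, against 77.5% and 1.36% over all symbols. These shares describe the table and were not tested, and they depend on which transcripts of each gene are among its rows.

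In the listed rows, the SR genes were further from coding than the hnRNP genes. Srsf2, Srsf3, Srsf5, Srsf10 and Srsf11 had no coding transcript among the rows, so none of their level could count as coding. Srsf1, with 3 coding rows, was 99.3% protein coding. In the summed FPKM of the Srsf genes, 24.2% was protein coding, 39.4% retained an intron and 26.2% was marked for decay. In the Hnrnp genes 78.2% was protein coding, 9.94% retained an intron and 2.22% was marked for decay. Over all symbols these were 77.5%, 3.80% and 0.415%, so the protein coding part of the Hnrnp genes was near that of all symbols. Library by library, 75.5% ± 4.71 of the Srsf sum was not protein coding, and for the Hnrnp sum it was 22.1% ± 5.26 (SD, n = 30). The Srsf value was 75.03% ± 7.46 in ChowCR, 75.02% ± 6.43 in 5% P, 75.4% ± 1.44 in 10% P, 75.03% ± 1.71 in 15% P and 77.1% ± 4.73 in Chow (SD, n = 6 each). The Hnrnp value was 20.6% ± 1.84 in ChowCR, 24.9% ± 5.15 in 5% P, 20.1% ± 5.38 in 10% P, 20.4% ± 7.01 in 15% P and 24.6% ± 4.93 in Chow.

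**Figure D1:**
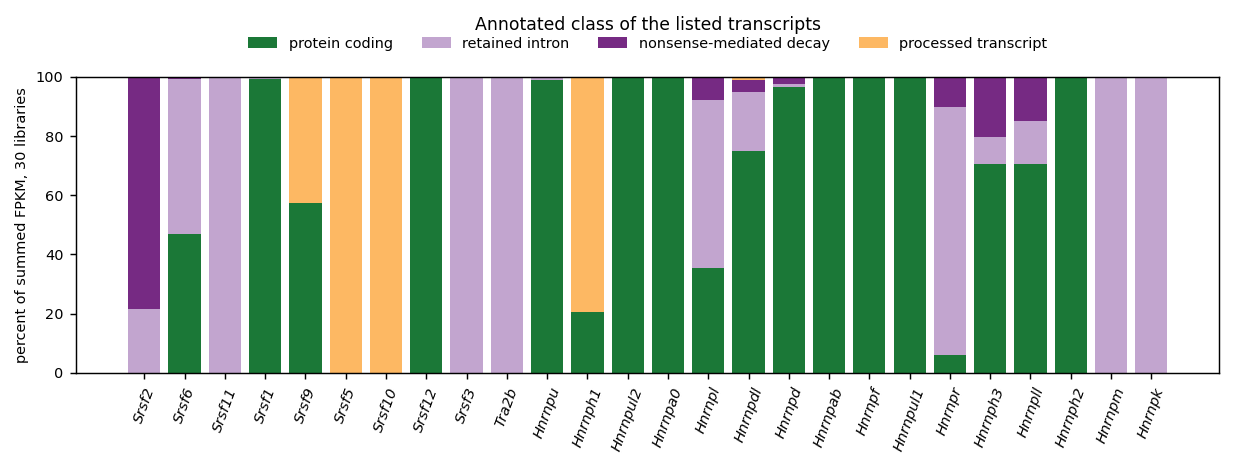
Percent of the summed FPKM of each gene, over all 30 libraries, that lay in transcripts of each annotated class, with Srsf genes and Tra2b to the left and Hnrnp genes to the right. Srsf2, Srsf11 and Hnrnpr stood mostly on retained-intron or decay transcripts, while Hnrnpu, Hnrnpf, Hnrnpul1 and Hnrnpul2 stood at or near 100% protein coding.

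Several members were represented by a small part of their annotated transcripts. Hnrnpk, which binds C-rich RNA, had 1 retained-intron transcript of 34 annotated ones, listed in 1 library of ChowCR (3.41 FPKM) and 1 of 5% P (5.69 FPKM). Srsf3, the smallest SR protein, had 1 retained-intron transcript of 10, listed in 2 libraries at 0.477 FPKM in 5% P and 0.104 FPKM in 15% P. The coding transcripts of Srsf2, Srsf5, Srsf10, Srsf11, Tra2b, Srsf3 and Hnrnpk were not analysed here. For these genes, a level describes transcripts other than the mRNA that encodes the protein. Coding transcripts were also few among the rows of Hnrnpl, with 1 of 5 annotated, Hnrnpm, with 1 of 8, and Hnrnpf, with 2 of 10.

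The leading transcript of each member, by its share of the summed FPKM over all libraries, shows the same division. It was protein coding in Hnrnpu (Hnrnpu-201, 99.02%), Hnrnpf (Hnrnpf-210, 97.3%), Hnrnph2 (Hnrnph2-202, 93.5%), Hnrnpd (Hnrnpd-201, 81.8%), Srsf12 (Srsf12-202, 81.1%) and Hnrnpll (Hnrnpll-205, 70.4%). Smaller coding leaders were Hnrnpab-201 (60.7%), Srsf9-201 (55.5%), Srsf1-205 (53.3%), Hnrnph3-201 (46.9%) and Hnrnpdl-207 (46.2%), while Hnrnpa0, Hnrnpul1 and Hnrnpul2 had 1 coding row each. A retained-intron transcript led in Hnrnpr (Hnrnpr-208, 83.03%), Srsf11 (Srsf11-211, 53.8%), Srsf6 (Srsf6-204, 52.4%) and Hnrnpl (Hnrnpl-206, 44.6%), and it held the whole level in Hnrnpm, Hnrnpk, Srsf3 and Tra2b. A processed transcript led in Srsf10 (Srsf10-207, 80.5%), Srsf5 (Srsf5-211, 73.4%) and Hnrnph1 (Hnrnph1-204, 37.5%), and a decay transcript led in Srsf2 (Srsf2-204, 78.4%).

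Among the SR genes with rows here, Srsf2 had the highest summed FPKM, none of it in protein coding transcripts. The order of these genes depends on which of their transcripts have rows. Srsf2, known as SC35 and a marker protein of nuclear speckles, averaged 28.3 FPKM over the 30 libraries with a coefficient of variation (CV, the SD as a percent of the mean) of 21.4%. Its gene lies at chr11:116849901-116853094 on the minus strand. Srsf6, which binds enhancers within exons, averaged 19.9 FPKM. Srsf11 averaged 17.0 FPKM, all in retained-intron transcripts, with a CV of 60.7%. Srsf1, the founding SR protein, averaged 7.11 FPKM, of which 99.3% was protein coding. Srsf9 averaged 5.65 FPKM, and Srsf5 averaged 4.20 FPKM, the last in processed transcripts alone. Srsf10, a splicing repressor when dephosphorylated, averaged 2.07 FPKM. Srsf12 averaged 1.03 FPKM and was listed in 19 libraries. Tra2b, which activates exons with GAA repeats, averaged 0.809 FPKM in 1 retained-intron transcript listed in 27 libraries.

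Among the hnRNP genes with rows here, Hnrnpu had the highest summed FPKM. Family genes such as Hnrnpa1, Hnrnpa2b1 and Hnrnpc were not among the symbols found and have no level here. A low rank, as for Hnrnpk and Hnrnpm, describes the listed transcripts and not the gene as a whole. Hnrnpu, a nuclear scaffold protein that binds RNA and chromatin, averaged 72.5 FPKM and lies at chr1:178321108-178337797 on the minus strand. Next came Hnrnph1, which binds runs of G, at 39.2 FPKM, and Hnrnpul2, an Hnrnpu-like protein of the DNA damage response, at 33.8 FPKM. Hnrnpa0, a binder of AU-rich mRNA, averaged 30.9 FPKM, and Hnrnpl, a binder of CA repeats, averaged 30.8 FPKM. Hnrnpd, known as AUF1 and active in decay of AU-rich mRNA, averaged 20.5 FPKM, while its relatives Hnrnpdl and Hnrnpab averaged 24.8 and 17.3 FPKM. Hnrnpf, a G-run binder like Hnrnph1, and Hnrnpul1 each averaged 16.0 FPKM. Hnrnpr, which binds neuronal mRNA including that of beta-actin, averaged 8.20 FPKM, and Hnrnph3 averaged 8.13 FPKM. Hnrnpll, a regulator of exon skipping in lymphocytes, averaged 5.47 FPKM, Hnrnph2 1.73 FPKM, Hnrnpm, a GU-rich RNA binder, 0.410 FPKM and Hnrnpk 0.304 FPKM. Some of these means count many unlisted values as 0 and need not lie near the level of any library. Hnrnpab was listed in 24 libraries, Hnrnph2 in 4 and Hnrnpk in 2. The leading coding transcripts Hnrnpdl-207 and Hnrnpll-205 were unlisted in 14 and 18 libraries.

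Hnrnpul1 was the steadiest member. It ranged from 12.6 to 19.4 FPKM with a CV of 11.1%, and 6.27% of the 4848 symbols tested had a lower CV. Its means were 15.7 ± 1.396 in ChowCR, 15.7 ± 1.71 in 5% P, 16.9 ± 1.91 in 10% P, 16.1 ± 1.67 in 15% P and 15.4 ± 2.28 FPKM in Chow (SD, n = 6 each). The 95% interval of its difference on the log2(FPKM + 0.5) scale was -0.17 to 0.24 for ChowCR over Chow, -0.17 to 0.25 for 5% P over Chow, -0.07 to 0.34 for 10% P over Chow and -0.14 to 0.28 for 15% P over Chow. The median CV was 35.2% over the 15 members tested and 34.5% over all symbols tested, so most members varied about as much as other genes.

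Hnrnpu was even apart from 3 libraries. It was at 3.66 FPKM in 1 library of 5% P, 11.6 FPKM in 1 of 15% P and 4.02 FPKM in 1 of Chow, and at 44.1 to 100.6 FPKM in the other 27. The 6 ChowCR libraries ran from 79.1 to 100.6 FPKM with a median of 87.0, and the 6 Chow libraries from 4.02 to 94.3 FPKM with a median of 76.8. A widest gap of more than 1 on the log2 scale between neighbouring libraries was seen in 3 of 15 members, Hnrnpu, Hnrnpd and Hnrnph3, and in 37.4% of all symbols. Hnrnpd was at 3.11 FPKM in 1 library of 15% P and at 15.4 to 24.7 FPKM in the other 29. Hnrnph3 was at 0.603 and 0.413 FPKM in 2 libraries of 5% P and at 3.57 to 16.2 FPKM in the other 28.

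**Figure D2:**
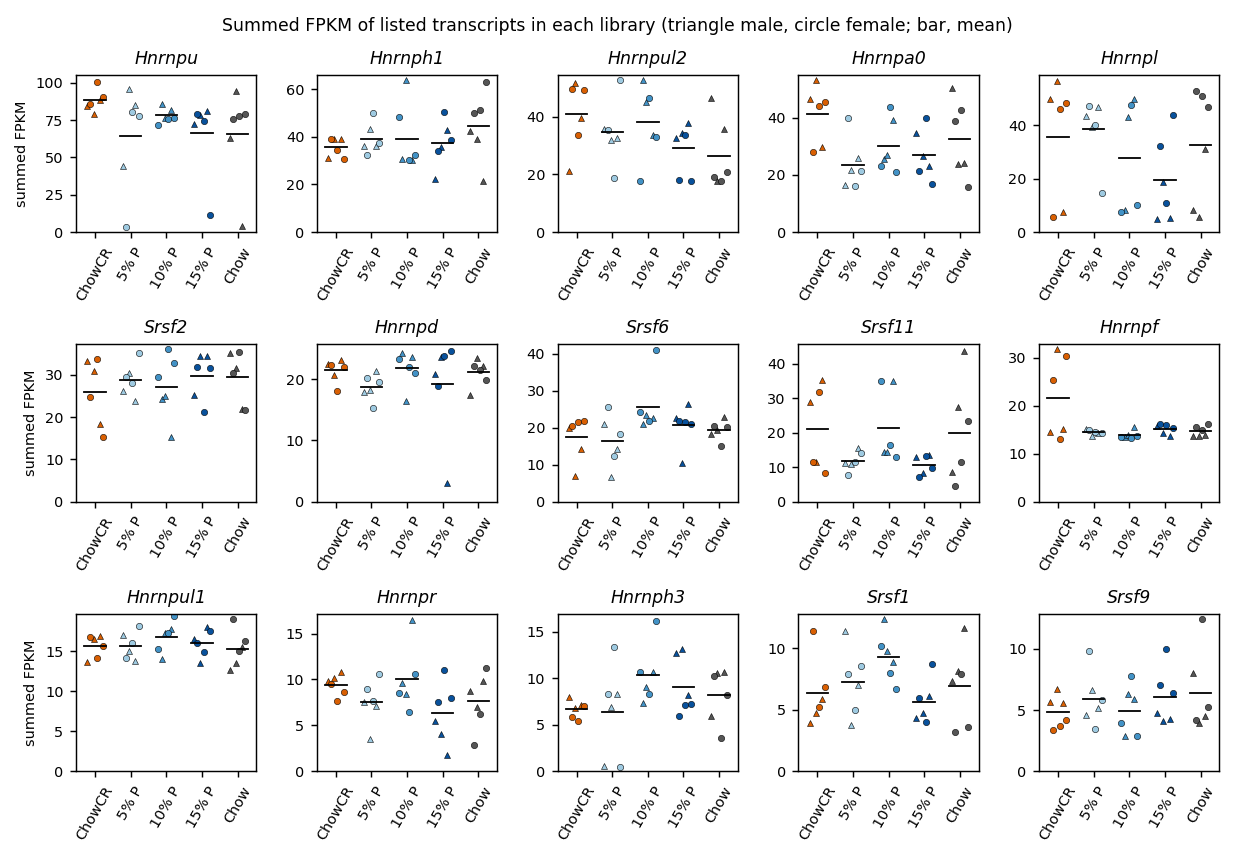
Summed FPKM of the 15 members tested, 1 panel a gene, with diets along the horizontal axis, a triangle for each male, a circle for each female and a bar for the mean. In most panels the diets overlap, Hnrnpul1 stays between 12.6 and 19.4 FPKM, and Hnrnpf reaches 25.4 to 31.9 FPKM in 3 ChowCR libraries while the other libraries of all diets lie at 13.0 to 16.1 FPKM.

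Diet was tested for the 15 members that were listed in all 30 libraries with a mean of at least 1 FPKM: 10 Hnrnp genes and Srsf1, Srsf2, Srsf6, Srsf9 and Srsf11. The other 11 members were missing from at least 1 library or, for Hnrnpm, too low. Each difference is in log2 of FPKM plus 0.5, so changes of low genes are understated, and comes from limma with sex as a covariate, and p-values were adjusted by Benjamini-Hochberg over all 4848 symbols. In bulk tissue, fewer cells of a type and less RNA per cell cannot be told apart.

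No member passed the test under caloric restriction. In ChowCR over Chow, 0 of 15 members had an adjusted p under 0.05 by limma, while 3 of 4848 symbols did (0.0619%). Without adjustment 2 of 15 members and 6.93% of all symbols lay under 0.05. The members' median difference was 0.03, against 0.02 over all symbols, and 9 of 15 were above 0.

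Hnrnpf had the smallest p of the members in this comparison, and its ChowCR libraries were uneven. Its 6 ChowCR libraries were at 14.5, 25.4, 31.9, 13.0, 15.2 and 30.3 FPKM, while Chow libraries lay between 13.7 and 16.1 FPKM with a median of 14.5 FPKM. So 3 ChowCR libraries, 1 male and 2 females, stood above all Chow libraries and the other 3 were in or just under their range. The mean was 21.7 ± 8.53 FPKM in ChowCR and 14.7 ± 1.06 FPKM in Chow (SD, n = 6 each), a difference of 0.46 ± 0.16 (estimate ± standard error; limma, adjusted p = 0.49). Nearly all of it was the single-exon transcript Hnrnpf-210 (ENSMUST00000180341.1, chr6:117923701-117925622, plus strand). The exception was the ChowCR library at 13.0 FPKM, which listed Hnrnpf-202 in its place.

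Hnrnpul2 and Hnrnpa0 came next by p in ChowCR. Hnrnpul2 ran from 21.2 to 51.7 FPKM with a median of 44.5 in ChowCR, and from 17.6 to 46.7 FPKM with a median of 20.04 in Chow. The groups overlapped, and the difference was 0.67 ± 0.28 (limma, adjusted p = 0.64). Hnrnpa0 had a median of 44.8 FPKM, with a range from 28.2 to 53.3 FPKM, in ChowCR, and a median of 31.5 FPKM, with a range from 15.9 to 50.4 FPKM, in Chow. Its difference was 0.40 ± 0.27 (limma, adjusted p = 0.81), and 0.22 without replicate 6 of Chow.

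The P diets gave no call against Chow either. For 5% P over Chow, 0 of 15 members and 0 of 4848 symbols passed (0%) by limma, with 0 members and 256 symbols under 0.05 before adjustment. The same count for 10% P over Chow was 0 of 15 members and 0 of 4848 symbols (0%), with 0 members and 300 symbols before adjustment. For 15% P over Chow it was again 0 of 15 and 0 of 4848 (0%), with 0 and 258 before adjustment. Members were above 0 in 5, 9 and 7 of 15 cases in 5% P, 10% P and 15% P, against 50.3%, 51.9% and 47.6% of all symbols.

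In 5% P, the smallest p belonged to Hnrnph3. It had 0.413 to 13.4 FPKM with a median of 7.59 in 5% P, and 3.57 to 10.7 FPKM with a median of 9.24 in Chow. The difference was -0.87 ± 0.49 (limma, adjusted p = 0.93), and it was -0.44 without replicate 1 and -0.41 without replicate 6 of 5% P, the 2 libraries under 1 FPKM. Hnrnpul2 differed by 0.44 ± 0.28 and Hnrnpa0 by -0.42 ± 0.27 (limma, adjusted p = 0.93 for both). They were 0.27 for Hnrnpul2 without replicate 6 of 5% P and -0.28 for Hnrnpa0 without replicate 1 of Chow. In 5% P, Hnrnpa0 ran from 16.1 to 40.1 FPKM with a median of 21.6 FPKM.

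In 10% P, Hnrnpul2, Srsf1 and Srsf6 had the smallest p values, all with estimates above 0. The summed level of 8 astrocyte markers was 743.1 to 881.5 FPKM in 10% P, above 476.5 to 723.2 FPKM in Chow and 546.4 to 710.3 FPKM in ChowCR. The 10% P range overlapped 528.4 to 773.9 FPKM in 5% P and 522 to 850.4 FPKM in 15% P. Sums of the neuron, oligodendrocyte, microglia, endothelium and choroid plexus markers overlapped between 10% P, Chow and ChowCR. The part of the astrocyte markers in the 10% P differences was not tested. Hnrnpul2 had a median of 39.3 FPKM in 10% P and 20.04 FPKM in Chow, a difference of 0.55 ± 0.28 (limma, adjusted p = 0.79). Srsf1 ran from 6.69 to 12.4 FPKM in 10% P and from 3.16 to 11.7 FPKM in Chow, a difference of 0.49 ± 0.29 (limma, adjusted p = 0.80), and 0.31 without replicate 2 of Chow. Srsf6 ran from 21.02 to 41.0 FPKM in 10% P and from 15.0 to 22.9 FPKM in Chow, a difference of 0.37 ± 0.26 (limma, adjusted p = 0.84). The Srsf6 ranges overlapped, and with protein coding transcripts alone its difference was -0.02, so the estimate above 0 was not seen in the coding transcript.

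In 15% P, the smallest p values were those of Srsf11, Hnrnpd and Hnrnph1, all with estimates below 0. Srsf11 ran from 7.08 to 13.4 FPKM in 15% P and from 4.59 to 43.7 FPKM in Chow, a difference of -0.54 ± 0.41 (limma, adjusted p = 0.92) that was -0.85 without replicate 2 and -0.28 without replicate 5 of Chow. Hnrnpd had a median of 22.3 FPKM in 15% P and 21.9 FPKM in Chow. Its difference of -0.36 ± 0.29 (limma, adjusted p = 0.92) was 0.08 without the library at 3.11 FPKM. Hnrnph1 averaged 37.3 ± 9.46 FPKM in 15% P and 44.5 ± 14.03 FPKM in Chow (SD, n = 6 each), a difference of -0.22 ± 0.21 (limma, adjusted p = 0.94) that was 0.43 with protein coding transcripts alone. It was -0.41 and -0.12 without replicate 5 or replicate 6 of Chow, and -0.098 without replicate 1 of 15% P.

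**Figure D3:**
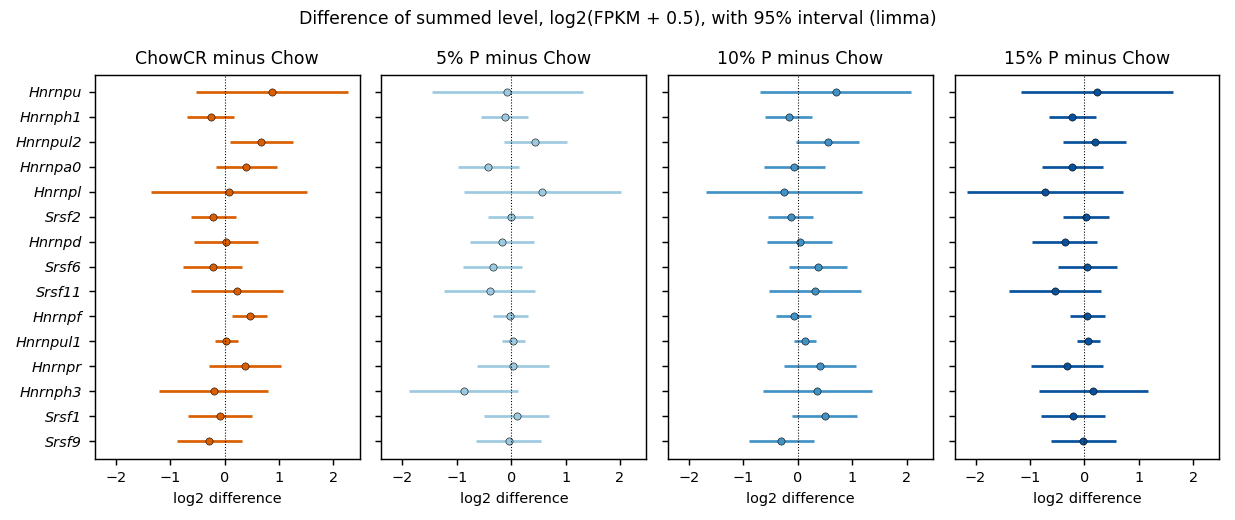
Difference of each diet from Chow for the 15 members tested, in log2(FPKM + 0.5), with points for the limma estimate and lines for the 95% interval. Intervals are narrow for Hnrnpul1 and wide for Hnrnpl and Hnrnpu, and those of Hnrnpf and Hnrnpul2 in ChowCR lie above 0 before adjustment.

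Set against caloric restriction, the P diets again gave no member call. For 5% P over ChowCR, 0 of 15 members and 0 of 4848 symbols (0%) passed by limma, with 2 members and 314 symbols under 0.05 before adjustment. For 10% P over ChowCR the counts were 0 and 0 (0%), with 2 members and 279 symbols before adjustment. For 15% P over ChowCR they were 0 and 0 (0%), with 3 members and 339 symbols before adjustment. These comparisons share the ChowCR libraries, so the 3 high Hnrnpf libraries enter each of them.

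Hnrnpf led all these lists, with 14.5 ± 0.478 FPKM in 5% P, 13.9 ± 0.852 in 10% P, 15.2 ± 0.976 in 15% P and 21.7 ± 8.53 FPKM in ChowCR (SD over 6 libraries). Hnrnpf differences from ChowCR were -0.48, -0.54 and -0.41 in 5% P, 10% P and 15% P, each ± 0.16 (limma, adjusted p = 0.63, 0.73 and 0.58). Hnrnpa0 averaged 23.6 ± 8.89 FPKM in 5% P, 27.1 ± 8.77 FPKM in 15% P and 41.2 ± 10.0 FPKM in ChowCR. Its differences were -0.82 ± 0.27 in 5% P (limma, adjusted p = 0.63) and -0.62 ± 0.27 in 15% P (limma, adjusted p = 0.63), and the groups overlapped in both. The others named by their p were Srsf11 in 5% P (-0.63 ± 0.41), Srsf6 and Srsf1 in 10% P (0.59 ± 0.26 and 0.57 ± 0.29) and Hnrnpr in 15% P (-0.71 ± 0.32). Their adjusted p by limma was 0.82, 0.86, 0.87 and 0.67. Summing the transcripts listed in all 30 libraries alone put Srsf11 at 0.11, and females alone put Hnrnpr at 0.02. Without replicate 3 of ChowCR, Srsf6 in 10% P was at 0.38 and Hnrnpf in 15% P at -0.27, and without replicate 5 of 15% P, Hnrnpr was at -0.43.

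A trend over 5, 10 and 15% P in the 18 P-diet libraries gave 0 of 15 members and 0 of 4840 symbols (0%) by limma, with 1 member and 206 symbols under 0.05 before adjustment. That member was Hnrnpl, whose median was 41.8 FPKM in 5% P, 26.6 FPKM in 10% P and 15.0 FPKM in 15% P, with ranges of 14.5 to 47.2, 7.66 to 49.8 and 5.07 to 43.98 FPKM. The trend was -1.30 ± 0.61 over the 10 percentage points (limma, adjusted p = 0.96), and the Chow libraries themselves ran from 5.72 to 53.0 FPKM. Hnrnph3 had a trend of 1.04 ± 0.61 and Srsf6 of 0.39 ± 0.30, with the same adjusted p. The Hnrnph3 trend was 0.56 and 0.52 without replicate 1 or replicate 6 of 5% P, and the Srsf6 trend was 0.16 without replicate 3 of 5% P. The Hnrnpl trend ran from -1.63 to -1.03 without 1 library at a time and from -2.34 to -0.26 over all alternatives. Hnrnpl-206 and Hnrnpl-202, its 2 leading transcripts, were both unlisted and counted as 0 in 0 libraries of 5% P, 3 of 10% P and 3 of 15% P. The part of this listing in the Hnrnpl trend was not tested. Over all 5 diets at once, 0 of 15 members and 0 of 4848 symbols (0%) passed the moderated F-test of limma, with 1 member and 293 symbols before adjustment. The smallest adjusted p values there were 0.77 for Hnrnpf, 0.85 for Hnrnpa0 and 0.90 for Srsf6.

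Males and females did not separate on these genes either. For males over females, 0 of 15 members and 1 of 4848 symbols (0.0206%) passed by limma, with 0 members and 255 symbols under 0.05 before adjustment. Srsf6 averaged 18.02 ± 6.13 FPKM in males and 21.8 ± 6.23 FPKM in females (SD, n = 15 each), a difference of -0.32 ± 0.17 (limma, adjusted p = 0.89). Hnrnpul2 averaged 36.6 ± 9.75 FPKM in males and 30.9 ± 13.4 FPKM in females, and Srsf11 averaged 19.4 ± 11.4 FPKM in males and 14.6 ± 8.81 FPKM in females, with differences of 0.31 and 0.40 (limma, adjusted p = 0.89 for both). Whether the diet differences themselves differed by sex was tested by an interaction term, which passed for 0 of 15 members and 4 of 4848 symbols (0.0825%) by limma. Before adjustment 1 member, Hnrnpr, and 234 symbols (4.83%) were under 0.05 there.

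The balance of transcripts varied widely between libraries of the same diet. In Srsf2, the transcript marked for decay, Srsf2-204 (ENSMUST00000176834.5), was at 25.1 to 35.0 FPKM in 18 libraries and at 2.04 to 11.99 FPKM in 12, with none between. The retained-intron transcript Srsf2-203 ran from 0.997 to 23.2 FPKM and exceeded Srsf2-204 in 10 of 30 libraries. The 12 lower libraries were spread over the diets, with 3 in ChowCR, 2 in 5% P, 3 in 10% P, 2 in 15% P and 2 in Chow. The share of Srsf2-204 in the Srsf2 sum was 74.5% ± 24.9 in ChowCR, 78.3% ± 27.9 in 5% P, 67.8% ± 31.9 in 10% P, 71.5% ± 35.3 in 15% P and 77.7% ± 24.8 in Chow (SD, n = 6 each).

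Srsf6 split its level nearly evenly between the 2 transcripts shown above. The retained-intron transcript Srsf6-204 held 52.4% and the coding Srsf6-203 held 46.9% of the sum over all libraries. Srsf6-204 was at 8.33 to 25.3 FPKM in 23 libraries and at 1.07 to 2.50 FPKM in 7, while Srsf6-203 stayed between 4.59 and 15.7 FPKM throughout. Of the 7 lower libraries, 2 were ChowCR, 3 were 5% P, 0 were 10% P, 1 was 15% P and 1 was Chow. The share of Srsf6 outside protein coding transcripts was 61.3% ± 7.86 in 10% P and 47.0% ± 20.7 in Chow (SD, n = 6 each; limma, adjusted p = 0.94). On the arcsine square root scale the difference was 0.16, and 0.052 without replicate 4 of Chow, the library at 7.08%.

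Hnrnpl had 2 leading transcripts that were listed together or not at all, which does not show that the RNA was absent. Its retained-intron transcript Hnrnpl-206 and its coding transcript Hnrnpl-202 were listed together in 20 libraries, at 5.17 to 28.4 FPKM and 0.778 to 24.4 FPKM, and both were unlisted in the other 10. Those 10 were 2 of ChowCR, 0 of 5% P, 3 of 10% P, 3 of 15% P and 2 of Chow. Hnrnpl-202 held 39.7% ± 10.8 of the Hnrnpl sum in 5% P and 19.9% ± 21.5 in Chow (SD, n = 6 each; limma, adjusted p = 0.98). The coding Hnrnpdl-207 and Hnrnpdl-202 were likewise unlisted together in 14 libraries, and the coding Hnrnpll-205 was listed in 12 libraries at 8.43 to 12.1 FPKM. Low or unlisted values of Srsf2-204, Srsf6-204, Hnrnpl-206 and Hnrnpdl-207 did not mark a single set of libraries: 4 libraries had none of them, 14 had 1, 8 had 2, 3 had 3 and 1 had all 4.

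**Figure D4:**
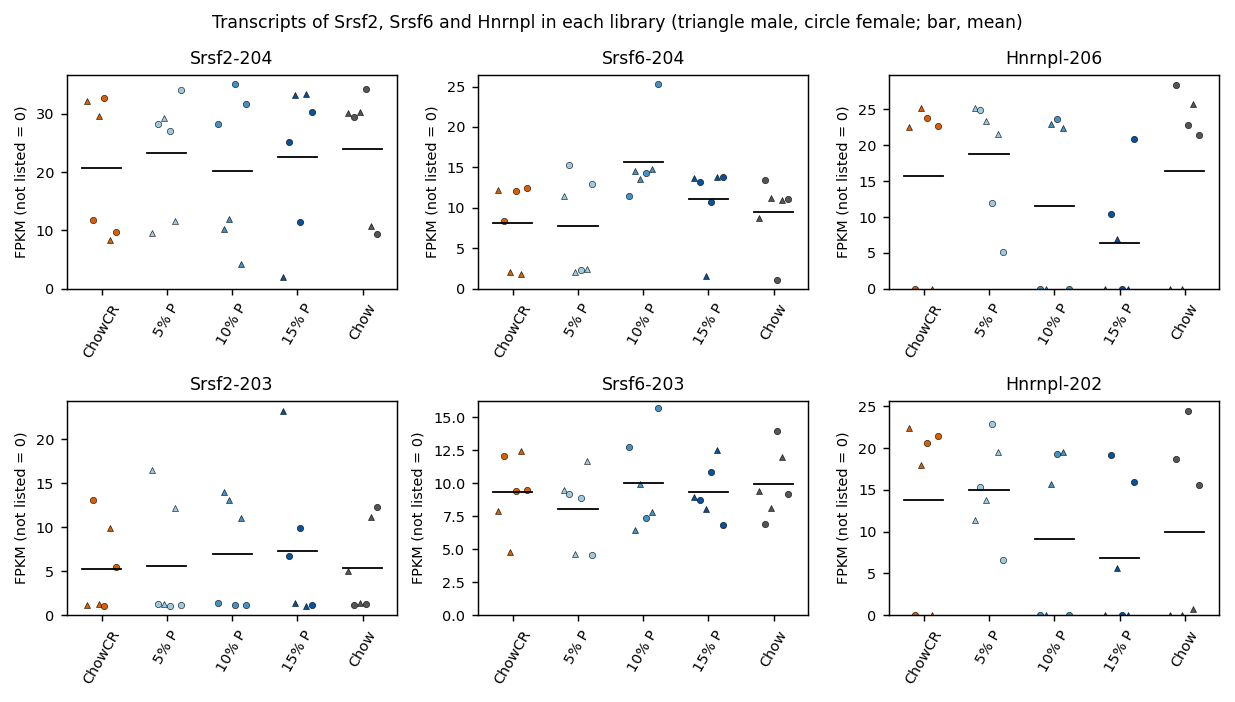
FPKM of paired transcripts of Srsf2, Srsf6 and Hnrnpl in each library, by diet, with a triangle for each male, a circle for each female, a bar for the mean and 0 for a transcript that was not listed. Srsf2-204, Srsf6-204 and Hnrnpl-206 each fall into high and low libraries within a diet, and the low ones occur in most diets.

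Transcript shares were tested for 29 member transcripts among 6106 transcripts with a mean share of 5 to 95%, on the arcsine square root scale. Shares of transcripts of the same gene are not independent, since a rise of one lowers the others. In ChowCR over Chow, 0 of 29 and 0 of 6106 (0%) passed by limma, with 0 and 340 under 0.05 before adjustment. The counts were 0 of 29 and 0 of 6106 (0%) in 5% P over Chow, 10% P over Chow and 15% P over Chow, with 0, 1 and 0 member transcripts and 307, 315 and 314 transcripts before adjustment. The F-test over all diets gave 0 and 0 (0%), with 1 and 300 before adjustment. Males over females gave 0 of 29 and 1 of 6106 (0.0164%), with 0 and 287 before adjustment.

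Among the hnRNP transcripts, the skipped-exon transcript Hnrnph3-204 had the smallest p over all diets. It held 31.1% ± 12.4 of the Hnrnph3 sum in ChowCR, 12.2% ± 12.2 in 5% P, 15.9% ± 10.1 in 10% P, 23.4% ± 8.58 in 15% P and 21.6% ± 9.45 in Chow (SD, n = 6 each; limma F-test, adjusted p = 0.96). Replicates 1 and 6 of 5% P did not list Hnrnph3-204, so its share counted as 0 there. The whole Hnrnph3 sum was only 0.603 and 0.413 FPKM in these libraries, so shares of Hnrnph3 in 5% P rest partly on very low values. In 5% P the adjusted p was 0.98 for Hnrnph3-204 and for the retained-intron Hnrnph3-206, which held 29.0% ± 42.0 there and 5.98% ± 5.70 in Chow and made up the whole sum in 1 library. Hnrnpr-206, marked for decay, held 17.3% ± 6.65 in 10% P and 6.22% ± 9.18 in Chow (limma, adjusted p = 0.94). It was listed in 16 libraries and had a share of at least 10.5% in all 6 of 10% P.

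In Hnrnph1, Hnrnph1-204, which runs on into an intron, held 24.9% ± 19.7 of the sum in 10% P and 42.0% ± 21.8 in Chow (limma, adjusted p = 0.95). The coding Hnrnph1-202 held 9.95% ± 7.11 in 10% P, 8.72% ± 6.29 in 15% P and 3.97% ± 1.97 in Chow (limma, adjusted p = 0.95 and 0.96). Hnrnph1-205, a processed transcript, held 7.79% ± 3.30 in ChowCR, 7.63% ± 5.54 in 15% P and 3.25% ± 1.77 in Chow (limma, adjusted p = 0.90 and 0.95). All of these ranges overlapped between the diets.

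Among the SR transcripts, the retained-intron Srsf11-219 held 2.91% ± 1.56 in ChowCR, 10.2% ± 4.84 in 15% P and 6.50% ± 5.01 in Chow (SD, n = 6 each; limma, adjusted p = 0.945 for ChowCR and 0.96 for 15% P). The coding Srsf9-201 held 64.3% ± 15.1 in ChowCR and 52.7% ± 16.5 in Chow (limma, adjusted p = 0.98). Between the sexes, the smallest p values were those of the Srsf2 pair and Hnrnpl-202. Srsf2-203 held 35.4% ± 30.9 in males and 16.6% ± 20.4 in females, and Srsf2-204 held 64.6% ± 30.9 in males and 83.3% ± 20.4 in females (SD, n = 15 each; limma, adjusted p = 0.96 for both). This pair held nearly all of the Srsf2 sum, so its shares mirror each other and are a single result. Hnrnpl-202 held 19.2% ± 18.8 in males and 31.8% ± 21.3 in females (limma, adjusted p = 0.96).

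The share of a gene outside protein coding transcripts could be tested for Hnrnph1, Hnrnph3, Hnrnpl, Srsf6 and Srsf9 among 1358 symbols. In each of the 4 diets over Chow and in the F-test over all diets, 0 of 5 members and 0 of 1358 symbols (0%) passed by limma, and 0 members were under 0.05 before adjustment. All symbols had 71, 70, 70 and 78 under 0.05 before adjustment in ChowCR, 5% P, 10% P and 15% P, and 59 in the F-test. Hnrnph3 was at 43.5% ± 7.74 in ChowCR, 48.2% ± 40.8 in 5% P, 22.6% ± 8.65 in 10% P, 36.9% ± 14.3 in 15% P and 30.4% ± 14.1 in Chow (SD, n = 6 each; limma F-test, adjusted p = 0.91). In 5% P the share was 100% in the 2 libraries under 1 FPKM, and its difference from Chow on the arcsine square root scale was 0.27, against 0.12 without either of them. Hnrnpl was at 60.3% ± 10.8 in 5% P and 80.1% ± 21.5 in Chow (limma, adjusted p = 0.93). Its only coding row was Hnrnpl-202, so this repeats the result for the Hnrnpl-202 share with the sign changed. Hnrnpl stood at 100% wherever Hnrnpl-202 was unlisted, as in 2 libraries of Chow and 0 of 5% P. Hnrnph1 was at 91.0% ± 3.19 in ChowCR, 71.2% ± 21.99 in 10% P, 77.7% ± 12.05 in 15% P and 83.02% ± 16.9 in Chow, with an adjusted p of 0.94, 0.94 and 0.97 by limma for the diets in that order. Srsf9 was at 34.8% ± 16.2 in ChowCR, 42.0% ± 22.3 in 5% P, 37.9% ± 6.82 in 10% P and 44.9% ± 16.0 in Chow (limma, adjusted p = 0.94 for ChowCR, 1.0 for 5% P and 0.94 for 10% P). Srsf6 was at 52.3% ± 15.5 in 15% P (limma, adjusted p = 0.995 against Chow).

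Members that could not be tested are given by their listing. Hnrnpab, which joins Hnrnpd in binding AU-rich mRNA, was listed in 6 of 6 libraries of ChowCR, 5 of 6 in each P diet and 3 of 6 in Chow. Where listed, it was at 16.6 to 22.6 FPKM in ChowCR, 19.2 to 24.6 in 5% P, 17.4 to 24.5 in 10% P, 14.4 to 30.8 in 15% P and 16.6 to 24.9 FPKM in Chow, so the listed levels overlapped throughout. Hnrnph2, an X-linked relative of Hnrnph1, was listed at 19.1 and 13.5 FPKM in 2 ChowCR libraries and at 16.5 and 2.89 FPKM in 2 Chow libraries, and in 0 of the 18 P-diet libraries. Srsf12 was listed in 5 libraries of ChowCR, 3 of 5% P, 3 of 10% P, 5 of 15% P and 3 of Chow, at no more than 3.35 FPKM. These counts were not tested, and a transcript that is not listed cannot be read as absent.

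Other splicing genes gave no call either. Of 27 other hnRNP-type RNA-binding proteins, 14 could be tested, and so could 16 of 32 neuronal and tissue splicing regulators, 18 of 47 core spliceosome genes, 8 of 16 SR protein kinases, phosphatases and carriers, and 3 of 15 genes of the exon junction and nonsense-mediated decay. The lists were chosen with earlier results of these data known. In each list 0 genes passed by limma in each of the 10 level comparisons, in either direction. Tardbp, which encodes TDP-43, had the smallest p of the first list over all diets, with 27.7 ± 13.5 FPKM in ChowCR, 35.2 ± 11.8 in 5% P, 40.01 ± 19.8 in 10% P, 44.1 ± 12.6 in 15% P and 23.0 ± 5.15 FPKM in Chow (SD, n = 6 each; limma F-test, adjusted p = 0.82). Rbmx, an X-linked splicing factor, lay between 4.07 FPKM in ChowCR and 6.66 FPKM in 5% P by group means (limma F-test, adjusted p = 0.91). Among the neuronal regulators, the group means of Elavl4, an RNA stabiliser, lay between 14.2 FPKM in ChowCR and 20.7 FPKM in Chow, and those of Rbm5 between 20.7 FPKM in 15% P and 29.4 FPKM in Chow (limma F-test, adjusted p = 0.90 for both).

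Of the core spliceosome, Sf3a3, a subunit of the U2 particle, averaged 9.94 ± 1.76 FPKM in ChowCR, 10.3 ± 1.29 in 5% P, 5.49 ± 4.55 in 10% P, 9.68 ± 2.43 in 15% P and 9.04 ± 2.60 FPKM in Chow (limma F-test, adjusted p = 0.82). Eftud2, a GTPase of the U5 particle, averaged 18.8 ± 8.85 FPKM in 10% P and 4.10 ± 7.83 FPKM in Chow, the highest and lowest of its group means (limma F-test, adjusted p = 0.91). Of the SR protein modifiers, Prmt1, an arginine methyltransferase, averaged 30.3 ± 4.92 FPKM in ChowCR, 27.3 ± 8.77 in 5% P, 19.2 ± 4.17 in 10% P, 30.9 ± 2.43 in 15% P and 23.7 ± 9.17 FPKM in Chow (limma F-test, adjusted p = 0.82). Clk2, a kinase of SR proteins, lay between 9.77 FPKM in 10% P and 5.73 FPKM in Chow by group means (limma F-test, adjusted p = 0.90). Group means of the decay factor Smg9 lay between 7.72 FPKM in ChowCR and 4.31 FPKM in 15% P, and those of Smg5 between 13.8 FPKM in 5% P and 10.5 FPKM in Chow (limma F-test, adjusted p = 0.83 and 0.91).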

How the data were processed

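Poly-A RNA of 30 whole hippocampi was sequenced on a stranded library kit, per the labels' protocols. The deposited FPKM values per transcript were made by the authors on mm10, and the submitters' processing notes name DESeq2 1.16.1, featureCounts 1.4.6, StringTie 1.2.4, TopHat2 2.0.14 and bcl2fastq 2.18.0, with no order. No source used here gives the strand setting. FPKM keeps no depth, so no counting interval is given.

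FPKM was summed per symbol, with an unlisted transcript as 0. Symbols listed in all 30 libraries with a mean of at least 1 FPKM were tested with limma 3.58.1 in R 4.3.3 on log2(FPKM + 0.5), with sex as covariate, all 30 libraries in 1 fit and Benjamini-Hochberg adjustment over all symbols; the threshold was an adjusted p of 0.05. Transcript shares with a mean of 5 to 95% and the share outside protein coding transcripts (GENCODE M21 classes) were tested on the arcsine square root scale. The fits were tested on simulated data with normally distributed noise and shifts added in ChowCR alone. That simulation did not model transcripts unlisted in some libraries and counted as 0, so it does not cover such values.

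The text names each member with its level and leading transcript, and in each comparison the 3 members with the smallest p where none passed, or 2 of each pathway list over all diets. Members and lists were chosen with earlier results of these data known. Alternatives were other pseudocounts, filters, sums, scalings and sets of libraries.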

Additional observations from a re-analysis of the deposited data

Results flagged for a closer look

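In 7 of the 75 member and diet groups of 6 libraries, 1 library stood far from the other 5 by Dixon's test, and chance flags about 1 in 20 groups. That is 9.33% of the members' groups, against 16.6% of the 24240 groups over all symbols tested, so such libraries were no more frequent among the members. Hnrnpu was at 11.6 FPKM in 1 library of 15% P, with the other 5 at 72.5 to 80.9 FPKM, and at 4.02 FPKM in 1 library of Chow, with the other 5 at 63.2 to 94.3 FPKM. Hnrnpd was at 3.11 FPKM in 1 library of 15% P, against 18.98 to 24.7 FPKM in the rest of that diet, and this library did not list Hnrnpd-201. Hnrnpl was at 14.5 FPKM in 1 library of 5% P, against 39.4 to 47.2 FPKM in the rest. Srsf6 was at 41.0 FPKM in 1 library of 10% P, against 21.02 to 24.2 FPKM in the rest, and at 10.5 FPKM in 1 library of 15% P, against 21.1 to 26.3 FPKM in the rest. Hnrnpf was at 15.5 FPKM in 1 library of 10% P, against 13.3 to 14.003 FPKM in the rest.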

How the results depend on the processing

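Under all 840 recomputed counts the number of members past the threshold stayed 0. Of 2483 recomputed values of named members, 2468 kept their side of the threshold without changing direction, and 15 changed direction. The F-test values over all diets are among the 2468 and have no direction to change. None of the 15 values, main or alternative, passed the test, and the cause was not tested. With protein coding transcripts alone, Srsf6 in 10% P over Chow was -0.018 and Hnrnph1 in 15% P over Chow was 0.43. With transcripts listed in all 30 libraries alone, Srsf11 in 5% P over ChowCR was 0.11. Females alone gave 0.073 for Hnrnpd in 15% P over Chow, 0.023 for Hnrnpr in 15% P over ChowCR and 0.048 for the non-coding share of Hnrnph1 in 15% P. Males alone gave non-coding share differences of -0.0071 for Hnrnph1 in ChowCR, 0.14 for Srsf9 in 5% P, and -0.064 for Srsf6 and -0.10 for Hnrnph3 in 15% P. Leaving out 1 library at a time gave -0.49 to 0.08 for Hnrnpd in 15% P over Chow (0.083 without the library at 3.11 FPKM), and non-coding share differences of -0.11 to 0.028 for Srsf9 in 5% P and -0.041 to 0.12 for Srsf6 in 15% P, on the arcsine scale. Hnrnpf in ChowCR over Chow stayed at 0.32 to 0.60, with an adjusted p of 0.21 to 0.86 by limma over all its alternatives. No paired analysis was made, because replicate numbers only follow the order of deposit and the numbers in the sample titles are not shared between diets. Over all symbols, the number passed across alternatives was 0 to 4 in ChowCR over Chow (0 without the other diets in the fit), 0 to 3 in 5% P and in 10% P over Chow, 0 to 2 in 15% P over Chow, 0 to 1 in 5% P and in 10% P over ChowCR, 0 to 4 in 15% P over ChowCR (4 without replicate 6 of 15% P), 0 to 1 for the trend, 0 to 6 over all diets (6 in males alone) and 0 to 4 for sex. It was 0 to 2 for each comparison of shares and 0 to 1 for each of non-coding shares. Without 1 library at a time, shares of Hnrnph3-206 in 5% P over Chow had a difference of 0.081, against 0.30 with all, and Srsf9-201 in ChowCR over Chow was 0.063, against 0.12. Other shares and non-coding shares near 0 also moved by over 1.5 times without a single library, and the Hnrnpf F-test had an adjusted p of 0.36 by limma without replicate 4 of ChowCR.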
